A study of Mus musculus with 16 samples.

Results

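The core genes of the mammalian circadian clock, Clock, Arntl, Per1, Per2, Per3, Cry1, Cry2, Nr1d1, Nr1d2 and Dbp, were followed in RNA-seq of sorted mouse skin cells. They were taken by symbol, and the symbols were tied to the Ensembl identifiers of the count table through the GENCODE M21 annotation, which gave 10 of the table's 55487 genes. Skin was subjected to hypobaric pressure, which stretched it, and cells were separated 6 h later by fluorescence-activated sorting into a CD45+ immune and a CD45- non-immune fraction, which the sample titles call stromal. CD45 is the surface phosphatase carried by leukocytes. Unstretched skin from the same area was the control. The 16 libraries form 4 groups of 4, which are immune cells of stretched skin, immune cells of control skin, stromal cells of stretched skin and stromal cells of control skin. The sources used here do not state strain, age, sex, genotype, the time of day at which skin was taken or whether libraries came from separate animals, so the p-values measure the spread between these libraries, which may be technical in part. Libraries are called here by the number in their titles.

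The clock is a feedback loop of transcription that turns over about once a day in nearly every cell. CLOCK and ARNTL (also called BMAL1) pair and activate genes through E-box elements, among them the Per and Cry genes, whose proteins return to block the pair. The nuclear receptors NR1D1 and NR1D2 (REV-ERB alpha and beta), also made under E-box control, repress Arntl through ROR response elements, and DBP activates genes through D-box elements. Per1 can in addition be switched on within the hour by cAMP response element binding protein and by the glucocorticoid receptor. Skin fibroblasts, keratinocytes and resident leukocytes each hold such a clock, and its genes move with the time of day, which is not given here.

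Promoter windows of 4 of the genes are shown because these genes carry the differences and likenesses between fractions described below: Per1 was higher and Nr1d1 and Cry2 lower in immune than in stromal cells, and Cry1 had no called difference between them. Each is RefSeq sequence of mouse build GRCm38.p6 from 250 bases before to 50 bases after an annotated start, 300 bases read in the direction of the gene. Per1 is at chr11:69098699-69098998 on the plus strand, Cry1 at chr10:85185005-85185304, Cry2 at chr2:92434020-92434319 and Nr1d1 at chr11:98775328-98775627, all 3 on the minus strand. Capitals mark E-boxes (CACGTG), a variant E-box (CACGTT, read as AACGTG on the other strand) and D-boxes (TTATGNAA).
Per1: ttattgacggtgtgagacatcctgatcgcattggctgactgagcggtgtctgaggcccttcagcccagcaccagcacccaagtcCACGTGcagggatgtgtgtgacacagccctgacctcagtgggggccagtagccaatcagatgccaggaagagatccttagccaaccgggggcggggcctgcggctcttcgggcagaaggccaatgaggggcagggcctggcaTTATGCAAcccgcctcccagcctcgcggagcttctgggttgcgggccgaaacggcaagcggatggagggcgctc
Cry1: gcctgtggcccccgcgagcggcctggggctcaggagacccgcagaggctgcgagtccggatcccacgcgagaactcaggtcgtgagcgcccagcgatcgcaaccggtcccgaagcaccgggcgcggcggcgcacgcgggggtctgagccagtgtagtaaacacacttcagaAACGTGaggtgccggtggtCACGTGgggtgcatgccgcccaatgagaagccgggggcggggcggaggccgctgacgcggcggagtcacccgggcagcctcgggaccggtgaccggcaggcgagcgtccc
Cry2: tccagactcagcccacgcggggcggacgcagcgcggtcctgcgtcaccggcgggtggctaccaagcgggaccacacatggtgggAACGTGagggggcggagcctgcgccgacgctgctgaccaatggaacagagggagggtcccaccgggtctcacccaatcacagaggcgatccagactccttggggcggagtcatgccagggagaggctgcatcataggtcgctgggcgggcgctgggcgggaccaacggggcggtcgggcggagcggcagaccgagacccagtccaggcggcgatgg
Nr1d1: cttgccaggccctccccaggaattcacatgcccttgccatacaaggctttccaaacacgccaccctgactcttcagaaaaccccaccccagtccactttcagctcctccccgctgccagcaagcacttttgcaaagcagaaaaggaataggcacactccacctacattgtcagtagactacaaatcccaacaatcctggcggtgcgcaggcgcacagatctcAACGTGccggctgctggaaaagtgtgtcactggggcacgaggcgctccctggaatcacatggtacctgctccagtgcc

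Per1 held an E-box whose first base is at position -166 from the start and a D-box at -24. Cry1 held an E-box at -60 and a variant E-box at -79, Cry2 a variant at -166 and Nr1d1 a variant at -28. The RefSeq table had windows for 9 of the 10 genes, 13 windows in all, and both strands were searched. Of the 13 windows, the E-box was found in 2 (Per1 and Cry1), the variant in 3 (Cry1, Cry2 and Nr1d1), the D-box in 2 (Per1 and Per3), a ROR response element (TAGGTCA or TGGGTCA) in 1 of the 2 of Arntl and a full cAMP response element (TGACGTCA) in 0. Per1 has a second window, at chr11:69099902-69100201, which held none of them. Of 32851 such windows over the genome, 7.15% held CACGTG, 4.69% CACGTT, 3.39% TTATGNAA, 6.45% the ROR element and 1.79% TGACGTCA. A match describes letters, not binding, and the windows of Clock, Nr1d2 and Dbp held none of these words.

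Levels are given as CPM, the reads of a gene as a share of its library's reads on the usual counts-per-million scale, after scaling by the trimmed mean of M-values (TMM) over all 16 libraries. Library totals were 7018743 to 20095580 reads in immune stretched, 2645421 to 6662268 in immune control, 21955174 to 26944965 in stromal stretched and 13563586 to 20467010 in stromal control libraries, so a level in immune cells of control skin rests on the fewest reads. Summed leukocyte markers (Ptprc, Cd52, Laptm5, Coro1a and Cd53) were at 3329 to 7583 CPM in immune stretched and 1325 to 4064 CPM in immune control libraries, and at 6.39 to 15.3 CPM in stromal stretched and 4.11 to 14.04 CPM in stromal control libraries, as the sort labels say. Fibroblast markers (Col1a1, Col3a1, Dcn, Lum and Pdgfra) summed to 33080 to 48520 CPM in stromal stretched and 34290 to 42460 CPM in stromal control libraries. They were also present in the immune libraries, at 6098, 1501, 7147 and 7982 CPM in stretched libraries 1, 2, 7 and 8 and at 5719, 2151, 1056 and 1768 CPM in control libraries 3 to 6. Lymphatic endothelial markers (Prox1, Lyve1, Mmrn1, Flt4 and Reln) summed to 139.7 to 356 CPM in immune stretched and 171.7 to 702.9 CPM in immune control libraries. In stromal stretched and stromal control libraries they summed to 18.9 to 63.7 and 15.5 to 25.1 CPM. Blood endothelial markers (Pecam1, Cdh5, Kdr, Emcn and Vwf) were at 52.2 to 145.9, 86.98 to 364.1, 27.4 to 56.5 and 15.45 to 38.02 CPM in the same order. The part of both lists in fraction differences was not tested. Some libraries stood apart on other genes. Immune stretched 2 had the most neutrophil transcripts (S100a8, S100a9, Retnlg, Csf3r and Cxcr2 summed to 47950 CPM, within a range of 143.7 to 47950 CPM in its group and 434.7 to 9836 CPM in immune control). Immune control 4, stromal stretched 7 and stromal stretched 8 held reads of olfactory and vomeronasal receptor genes at 6209, 424 and 208 CPM of the library total, against 17.96 to 69.9 in the other 13 libraries.

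The activators were measured in every library. Clock had 54.9, 33.05, 45.6 and 38.5 CPM in immune stretched and 38.98, 43.6, 48.2 and 65.5 CPM in immune control libraries, against 36.3, 32.9, 39.95 and 30.3 CPM in stromal stretched and 32.4, 31.5, 38.1 and 34.8 CPM in stromal control libraries. Arntl had 21.4, 11.02, 23.4 and 20.6 CPM in immune stretched and 25.1, 28.6, 18.5 and 17.4 CPM in immune control libraries, against 43.5, 41.3, 35.0 and 34.8 CPM in stromal stretched and 24.1, 36.6, 28.4 and 54.7 CPM in stromal control libraries. Clock stayed between 30.3 and 65.5 CPM in all 16 libraries, while Arntl was lower in each immune stretched library than in any stromal stretched one.

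Among the Period repressors, Per1 had 90.9, 159.6, 70.04 and 59.1 CPM in immune stretched and 90.2, 71.3, 222 and 124 CPM in immune control libraries, against 19.5, 31.1, 12.2 and 12.4 CPM in stromal stretched and 33.03, 25.2, 32.1 and 12.1 CPM in stromal control libraries. Every immune library was above every stromal one. Per2 and Per3, its paralogues, were low: Per2 ranged over 4.65 to 7.92 CPM in immune stretched, 3.47 to 11.8 CPM in immune control, 4.18 to 12.9 CPM in stromal stretched and 1.92 to 6.38 CPM in stromal control libraries. Per3 ranged over 4.78 to 11.6 CPM in immune stretched, 5.19 to 40.2 CPM in immune control, 5.42 to 22.7 CPM in stromal stretched and 8.49 to 14.4 CPM in stromal control libraries, and its highest value was that of immune control 4, 1 of those with receptor-gene reads.

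The cryptochromes, partners of the Period proteins, split by gene. Cry2 had 19.8, 9.35, 27.7 and 27.4 CPM in immune stretched and 9.80, 8.08, 7.41 and 14.8 CPM in immune control libraries, against 76.9, 96.4, 96.3 and 73.3 CPM in stromal stretched and 60.6, 57.7, 81.0 and 42.96 CPM in stromal control libraries. Cry1 had 23.9, 23.1, 23.2 and 26.2 CPM in immune stretched and 15.3, 12.2, 16.1 and 11 CPM in immune control libraries, against 22.9, 25.0, 19.1 and 24.6 CPM in stromal stretched and 13.5, 13.2, 9.09 and 20.3 CPM in stromal control libraries. Cry2 was lower in all immune libraries than in any stromal one, whereas the fractions shared the same range for Cry1, and within each fraction the stretched libraries sat at the upper end of it, joined by stromal control 4.

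Nr1d1, the Arntl repressor, had 15.9, 2.91, 20.7 and 32.4 CPM in immune stretched and 9.18, 6.23, 3.46 and 6.83 CPM in immune control libraries, against 97.1, 97.4, 109 and 74.8 CPM in stromal stretched and 54.9, 65.6, 62.2 and 32.3 CPM in stromal control libraries. Nr1d2, its paralogue, had 41.4, 17.2, 42.1 and 42.5 CPM in immune stretched and 47.96, 27.5, 41.8 and 40.1 CPM in immune control libraries, against 48.9, 58.97, 107 and 62.5 CPM in stromal stretched and 44.1, 34.5, 47.04 and 18.4 CPM in stromal control libraries. Nr1d1 separated the fractions at either treatment, and both paralogues were higher in each stromal stretched library than in any stromal control one. Dbp, the D-box activator and a direct output of the loop, had 8.41, 3.95, 10.97 and 12.5 CPM in immune stretched and 1.84, 0.462, 8.89 and 3.48 CPM in immune control libraries, against 11.3, 13.7, 23.4 and 22.9 CPM in stromal stretched and 25.9, 13.6, 26.9 and 7.13 CPM in stromal control libraries. The value of 0.462 CPM for Dbp in immune control 4 rests on 2 reads, below a floor of 3 reads.

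**Figure D1:**
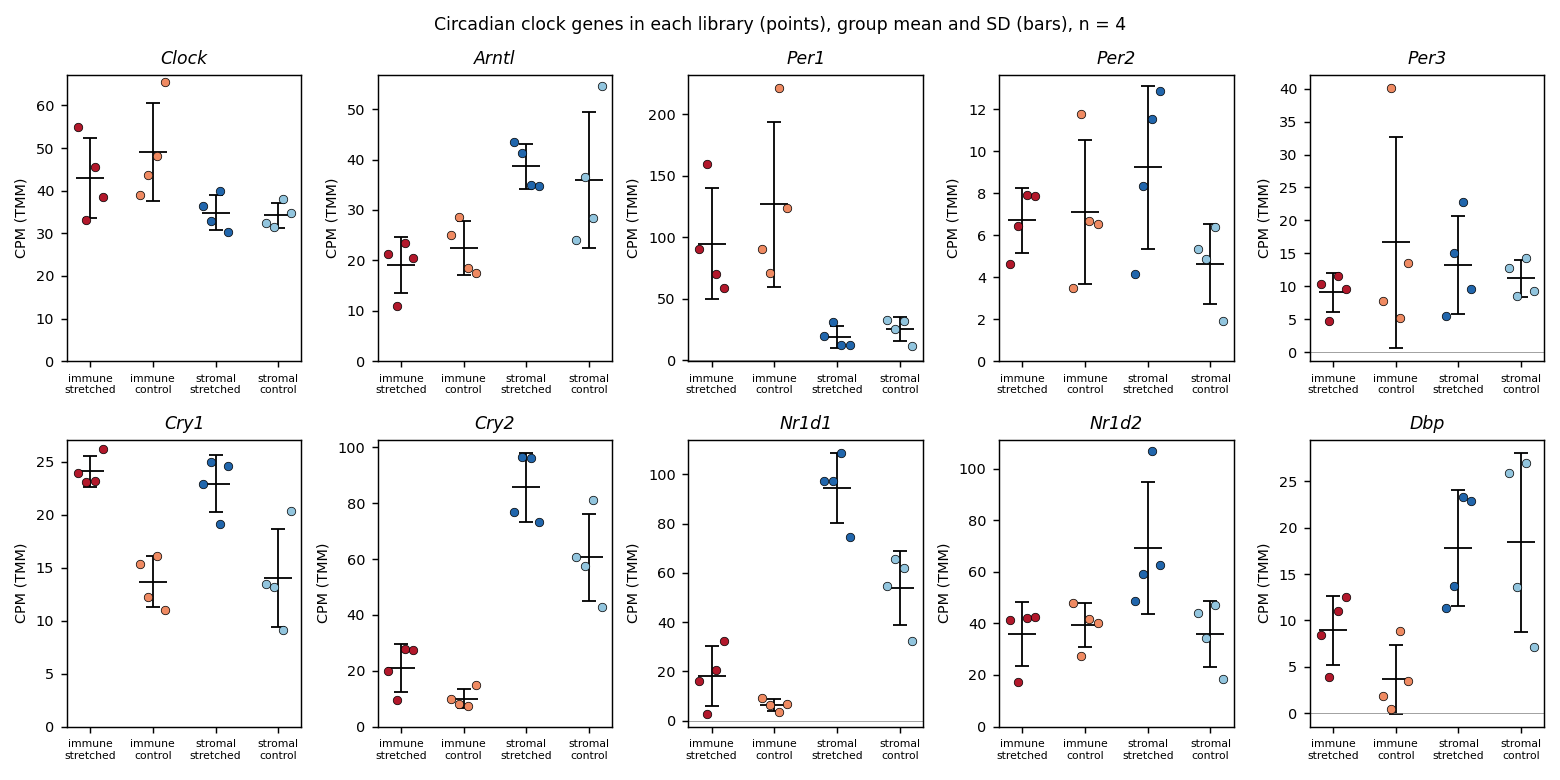
CPM of each clock gene (vertical axis, linear) in immune stretched, immune control, stromal stretched and stromal control libraries; each point is a library and bars are the group mean and SD, n = 4. The lowest immune value of Per1 is 59.1 CPM and the highest stromal one 33.03 CPM, while Cry2 and Nr1d1 are lower in immune libraries, without overlap for Cry2 and, within each treatment, for Nr1d1.

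Per kilobase of annotated exon the order of the genes differed between fractions. In immune stretched libraries Per1 stood first at 16.9 ± 8.01 CPM per kb (SD, n = 4), followed by Cry1 at 7.21 ± 0.434, Nr1d2 at 6.62 ± 2.29 and Nr1d1 at 5.84 ± 3.97 CPM per kb. In immune control libraries Per1 was again first at 22.5 ± 11.9 CPM per kb, then Nr1d2 at 7.27 ± 1.59 and Cry1 at 4.09 ± 0.724 CPM per kb. In both, the range of Per1 did not touch that of the next gene, while in immune stretched libraries the neighbours from Cry1 down to Arntl overlapped. In stromal stretched libraries Nr1d1 led at 30.7 ± 4.62 CPM per kb, ahead of Cry2 at 13.6 ± 1.96 and Nr1d2 at 12.8 ± 4.74 CPM per kb, and its range was clear of Cry2's. In stromal control libraries Nr1d1 led at 17.5 ± 4.86 CPM per kb and Cry2 followed at 9.58 ± 2.48, but their ranges overlapped. Per2 and Per3 were the lowest pair in 3 groups. In the fourth, immune control, Per2 and Dbp came last. With the longest annotated transcript as the length the first gene of each group was the same.

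**Figure D2:**
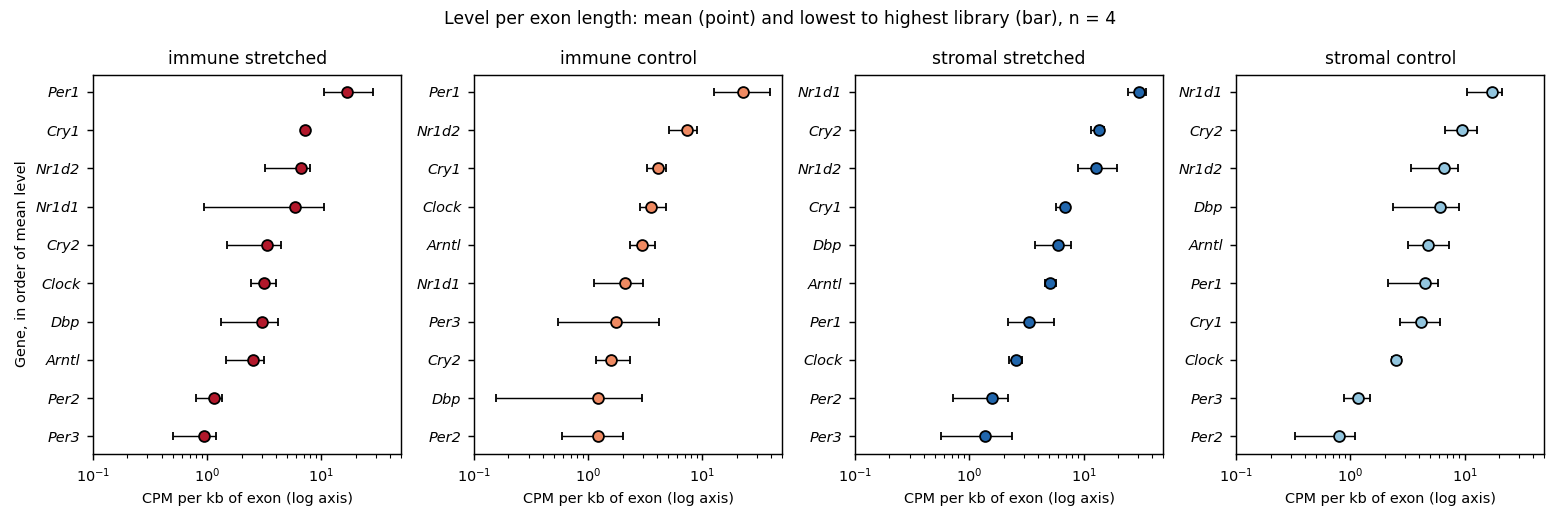
Level of each clock gene in CPM per kilobase of exon (horizontal log axis), ordered by mean in each of the 4 groups; points are means and bars run from the lowest to the highest library, n = 4. Per1 heads both immune groups and Nr1d1 heads both stromal groups.

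Some clock genes differed between the fractions in both treatments, at shares near those of all genes. In stretched skin, Per1 was higher and Cry2, Arntl, Nr1d1, Nr1d2 and Dbp lower in immune than in stromal cells, 6 of 10 genes at an adjusted p under 0.05 in edgeR's quasi-likelihood test with Benjamini-Hochberg adjustment over all genes. Of all 17116 genes tested there, 49.0% were called (23.9% higher and 25.1% lower), so the share among clock genes is near the background. The groups did not overlap for 5 of the 10 genes, against 48.4% of all genes. In control skin, Per1 and Clock were higher and Cry2, Nr1d1 and Dbp lower in immune cells, 5 of 10 against 49.4% of 15142 genes (26.6% higher and 22.8% lower), and the groups were apart for 4 of 10 against 48.0% of all genes. Per1, Cry2, Nr1d1 and Dbp, 4 genes, were called in the same direction in both. The share of all genes called in the same direction in both was not computed. The median log2 fold change of the 10 genes, immune over stromal, was -0.89 in stretched skin and 0.15 in control skin, where those of all genes were -0.06 and 0.08. In such bulk libraries, fewer cells of a type and less RNA per cell cannot be told apart.

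Per1 averaged 94.9 ± 45.1 CPM in immune stretched and 18.8 ± 8.88 CPM in stromal stretched libraries (SD, n = 4 each), a log2 fold change of 2.21 ± 0.40 (SE, edgeR adjusted p = 0.00158). It averaged 127 ± 66.9 CPM in immune control and 25.6 ± 9.69 CPM in stromal control libraries, a log2 fold change of 2.41 ± 0.42 (edgeR adjusted p = 0.000803). These are 4.62 times the stromal level in stretched skin and 5.31 times it in control skin. Of the 10 genes, Per1 was the only one called higher in immune cells in both treatments. Clock was called higher in control skin, with a log2 fold change of 0.63 ± 0.22 and an edgeR adjusted p of 0.0372. That call was lost in 10 of 17 alternative analyses with its direction kept, among them leaving out immune control 4 (adjusted p = 0.0514), and offsets for transcript length and GC content turned the fold change to -0.12.

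Nr1d1 was lower in immune cells in both treatments. It averaged 17.99 ± 12.2 CPM in immune stretched and 94.5 ± 14.2 CPM in stromal stretched libraries, a log2 fold change of -2.51 ± 0.52 (edgeR adjusted p = 0.00346), and 6.43 ± 2.35 CPM in immune control and 53.7 ± 14.96 CPM in stromal control libraries, a log2 fold change of -2.95 ± 0.34 (edgeR adjusted p = 5.92e-05). Cry2 was also lower in immune cells, with log2 fold changes of -2.15 ± 0.32 in stretched skin and -2.48 ± 0.30 in control skin (edgeR adjusted p = 0.000583 and 7.18e-05). The calls of Per1, Cry2 and Nr1d1 held in every alternative run in both treatments. Dbp was lower in immune cells, at -1.11 ± 0.38 in stretched skin (edgeR adjusted p = 0.0324) and -2.24 ± 0.70 in control skin (edgeR adjusted p = 0.021). The Dbp groups overlapped in both treatments: immune stretched 8 was above stromal stretched 5, and immune control 5 was above stromal control 4. Of 17 alternatives, 9 ended its call in stretched skin, with an adjusted p of 0.299 without the libraries with receptor-gene reads, and in control skin leaving out stromal control 1 or 3 (adjusted p = 0.0520 and 0.0530) or adding the length and GC offsets (adjusted p = 0.0976) ended it. Without immune control 5 the fold change of Dbp in control skin was -3.14.

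Arntl and Nr1d2 were called in stretched skin and not in control skin. In stretched skin Arntl averaged 19.1 ± 5.52 CPM in immune and 38.6 ± 4.42 CPM in stromal cells, a log2 fold change of -1.14 ± 0.24 (edgeR adjusted p = 0.00392). Nr1d2 averaged 35.8 ± 12.4 CPM in immune and 69.3 ± 25.6 CPM in stromal cells, at -1.09 ± 0.35 (edgeR adjusted p = 0.0244), and lost its call without stromal stretched 7 (adjusted p = 0.0692) or without the libraries with receptor-gene reads (adjusted p = 0.156). In control skin the log2 fold changes were -0.56 ± 0.31 for Arntl (edgeR adjusted p = 0.155) and 0.23 ± 0.30 for Nr1d2 (edgeR adjusted p = 0.562). Whether the gap between fractions differed between treatments was tested directly, as described below, and none of the 10 genes passed. Cry1 gave log2 fold changes of -0.06 ± 0.17 in stretched skin and 0.07 ± 0.31 in control skin, and Per2 and Per3 were not called in either.

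**Figure D3:**
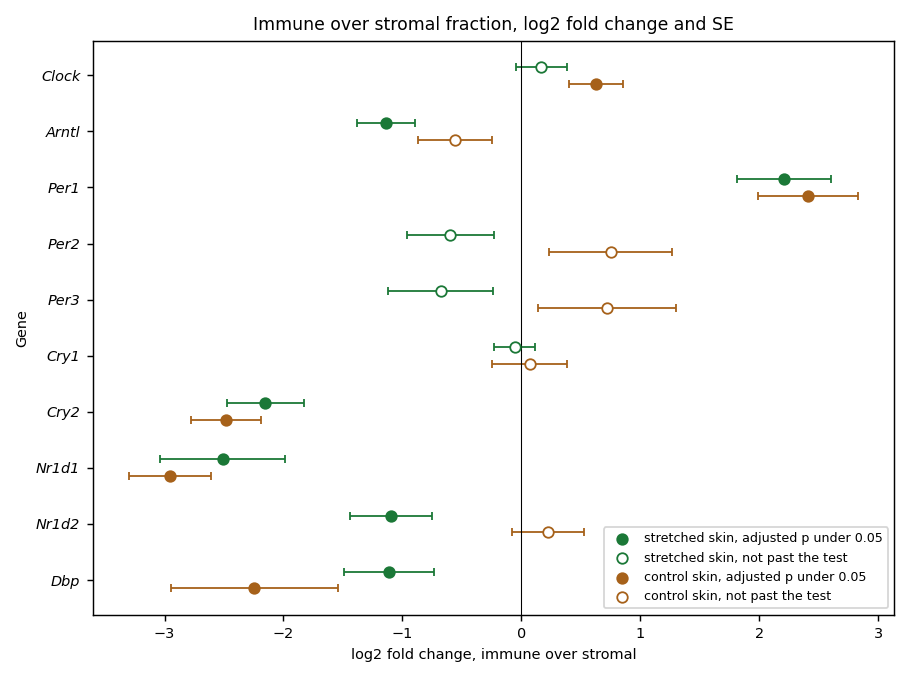
Log2 fold change of each clock gene, immune over stromal (horizontal axis), in stretched and in control skin; points are edgeR estimates, bars are SE, and filled points have an adjusted p under 0.05. Per1 lies to the right of 0 at 2.21 and 2.41, and Cry2, Nr1d1 and Dbp lie to the left of 0 in both.

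Ratios between 2 clock genes within a library need no scaling across libraries. Reads of Cry2 over reads of Cry1 were 0.826, 0.405, 1.20 and 1.04 in immune stretched and 0.640, 0.660, 0.462 and 1.34 in immune control libraries, against 3.36, 3.86, 5.04 and 2.98 in stromal stretched and 4.50, 4.38, 8.91 and 2.11 in stromal control libraries. The cryptochrome ratio was lower in every immune library than in any stromal one. Reads of Nr1d1 over reads of Arntl were 0.745, 0.264, 0.884 and 1.58 in immune stretched and 0.366, 0.218, 0.187 and 0.392 in immune control libraries, against 2.23, 2.36, 3.11 and 2.15 in stromal stretched and 2.28, 1.79, 2.19 and 0.591 in stromal control libraries. Stromal control 4 sat apart from its group in this ratio, and immune stretched 2 was the lowest of its own. Reads of Per1 over reads of Per2 were 19.6, 24.8, 8.84 and 7.52 in immune stretched and 26.0, 6.06, 33.2 and 18.9 in immune control libraries, against 4.66, 3.73, 1.06 and 0.963 in stromal stretched and 6.20, 5.15, 5.04 and 6.26 in stromal control libraries. All stromal stretched libraries were below all stromal control ones in this ratio, and the lowest pair, 7 and 8, are those with receptor-gene reads.

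Stromal control 4 and immune stretched 2 were at an end of their groups for the most clock genes. Stromal control 4 held the highest Cry1 and Arntl of its group and the lowest Per1, Per2, Cry2, Nr1d1, Nr1d2 and Dbp, so it was at an end of its group for 8 of 10 genes. Immune stretched 2 was at an end for 9 of 10, with the highest Per1 and the lowest value of 8 others. It is also the library with the most neutrophil transcripts and, at 1501 CPM, the fewest fibroblast transcripts of its group. Stromal stretched 7 and stromal control 3 were at an end for 7 of 10. Every gene has a highest and a lowest library in each group, so being at an end is common. The share over all genes was not computed.

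**Figure D4:**
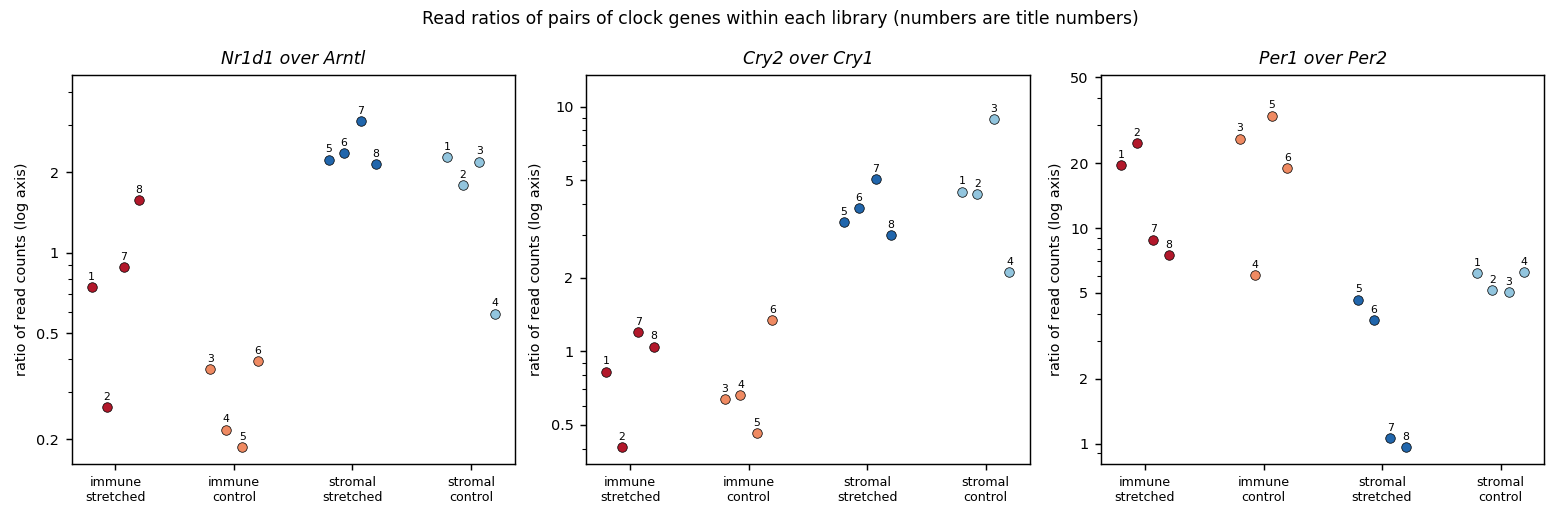
Ratio of read counts within each library (vertical log axes) for Nr1d1 over Arntl, Cry2 over Cry1 and Per1 over Per2; each point is 1 library of the 4 groups and carries its title number. Stromal control 4 lies at 0.591 for Nr1d1 over Arntl, below the other stromal controls at 1.79 to 2.28.

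Stretching was compared with control skin within each fraction. In stromal cells none of the 10 clock genes passed an adjusted p of 0.05 in edgeR's quasi-likelihood test, 0 of 10 against 4.98% of 16074 genes, although 5 had an unadjusted p under 0.05, as did 4309 of all genes. DESeq2 called 3 (Cry1, Nr1d1 and Nr1d2), against 14.1% of all genes. With no filter on low counts edgeR called 2 (Nr1d1 and Nr1d2), against 5.16%, and with a filter of 50 reads in 4 libraries 1 (Nr1d1), against 11.6%. A positive log2 fold change was found for 8 of 10, with a median of 0.38, where 8138 of all 16074 genes were positive with a median of 0.01. With length and GC offsets Per3 (-0.04), Arntl (-0.05) and Clock (-0.18) turned negative and Dbp (0.19) positive. Without the libraries with receptor-gene reads Per3 (-0.15) and Clock (-0.0009) turned negative. The groups did not overlap for 2 genes, Nr1d1 and Nr1d2, both higher in stretched skin, against 7.78% of all genes in that direction.

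Nr1d1 averaged 94.5 ± 14.2 CPM in stromal stretched and 53.7 ± 14.96 CPM in stromal control libraries, a log2 fold change of 0.82 ± 0.23 (edgeR adjusted p = 0.0592). Its fold change ran from 0.66 to 0.98 as single libraries were left out, the lowest being that without stromal control 4. Nr1d2 averaged 69.3 ± 25.6 CPM in stromal stretched and 36.0 ± 12.9 CPM in stromal control libraries, at 0.96 ± 0.32 (edgeR adjusted p = 0.0919), and at 0.57 without the libraries with receptor-gene reads, stretched 7 and 8. The repressor Cry1 averaged 22.9 ± 2.68 CPM in stromal stretched and 14.01 ± 4.66 CPM in stromal control libraries, at 0.72 ± 0.24 (edgeR adjusted p = 0.0891). Stromal control 4, at 20.3 CPM, was the only control library above any stretched one, and without it the fold change of Cry1 was 0.97 (edgeR adjusted p = 0.0375). Cry2 gave 0.51 ± 0.21 and Per2 1.01 ± 0.42 (edgeR adjusted p = 0.15 and 0.15), and Per2 was at 0.42 without stretched 7 and 8. Dbp, Clock, Arntl and Per3 had log2 fold changes of -0.03 ± 0.40, 0.04 ± 0.16, 0.11 ± 0.24 and 0.25 ± 0.39, and Per1 of -0.44 ± 0.36, with adjusted p of 0.468 or more. Of the marker lists, that of the hair follicle (Krt35, Krt31, Krt25, Tchh and Lgr5) did not overlap between treatments, with sums of 28.7 to 115.2 CPM in stromal stretched and 7.81 to 26.94 CPM in stromal control libraries. Of its 5 genes 4 to 5 had reads in stretched and 2 to 4 in control libraries, Krt31 was at 0 in 1 stretched and all 4 control libraries, and Krt25 was at 0 in 3 control libraries. Pericyte markers (Rgs5, Notch3, Abcc9, Kcnj8 and Pdgfrb) summed to 153 to 215.4 CPM in stromal stretched and 99.4 to 158.4 CPM in stromal control libraries, and skeletal muscle markers (Acta1, Ckm, Myh1, Myh4 and Atp2a1) to 642.7 to 1628 CPM in stromal stretched and 361 to 919 CPM in stromal control libraries, each with all 5 genes read in every library. The part of these markers in the values of the clock genes was not tested.

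In immune cells 0 of 10 clock genes were called, as were 0% of the 14183 genes tested. Unadjusted p-values under 0.05 were found for 2467 genes, 2 of them clock genes, and DESeq2 called 781 genes, 5.51% of those tested, and 0 clock genes. The median log2 fold change of the 10 genes was -0.31, and that of all genes -0.02. Cry1 was the gene whose groups did not overlap, 1 of 10 against 8.55% of all genes in that direction and 11.7% in either, with 24.1 ± 1.45 CPM in immune stretched and 13.7 ± 2.42 CPM in immune control libraries and a log2 fold change of 0.64 ± 0.24 (edgeR adjusted p = 0.233).

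Cry2 averaged 21.1 ± 8.62 CPM in immune stretched and 10.01 ± 3.32 CPM in immune control libraries, at 0.89 ± 0.36 (edgeR adjusted p = 0.25). Nr1d1 averaged 17.99 ± 12.2 CPM in immune stretched and 6.43 ± 2.35 CPM in immune control libraries, at 1.28 ± 0.58 (edgeR adjusted p = 0.288). Nr1d1, which was lower in immune than in stromal cells, had values in immune libraries in step with the fibroblast markers: stretched 8, 7 and 1 had the highest Nr1d1 at 32.4, 20.7 and 15.9 CPM and the highest fibroblast sums at 7982, 7147 and 6098 CPM, control 3 came next at 9.18 CPM of Nr1d1 and a sum of 5719 CPM, and the other 4 libraries had Nr1d1 at 2.91 to 6.83 CPM and sums of 1056 to 2151 CPM. Cry2 was also highest in stretched 7, 8 and 1, but control 6, with a sum of 1768 CPM, had more Cry2 (14.8 CPM) than control 3 (9.80 CPM). Dbp was highest in stretched 8 and 7, but control 5, with the lowest sum, had 8.895 CPM of Dbp and control 3 had 1.84 CPM. The part of fibroblast transcripts in the differences of Nr1d1, Cry2 and Dbp was not tested. Macrophage and dendritic cell markers (Cd74, Lyz2, Mrc1, Cd209a and Csf1r) also had different ranges by treatment, at 20880 to 37560 CPM in immune stretched and 3439 to 13470 CPM in immune control libraries, and their part was not tested either.

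Dbp averaged 8.95 ± 3.74 CPM in immune stretched and 3.67 ± 3.70 CPM in immune control libraries, at 1.14 ± 0.69 (edgeR adjusted p = 0.401), and at 2.03 without immune control 5 (edgeR adjusted p = 0.24). Per3 had the most negative log2 fold change in immune cells at -1.15 ± 0.63 (edgeR adjusted p = 0.36), which became -0.09 without immune control 4. Per1 averaged 94.9 ± 45.1 CPM in immune stretched and 127 ± 66.9 CPM in immune control libraries, at -0.55 ± 0.43 (edgeR adjusted p = 0.511). The log2 fold changes of Arntl, Clock, Nr1d2 and Per2 were -0.44 ± 0.31, -0.37 ± 0.23, -0.31 ± 0.28 and -0.30 ± 0.46.

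**Figure D5:**
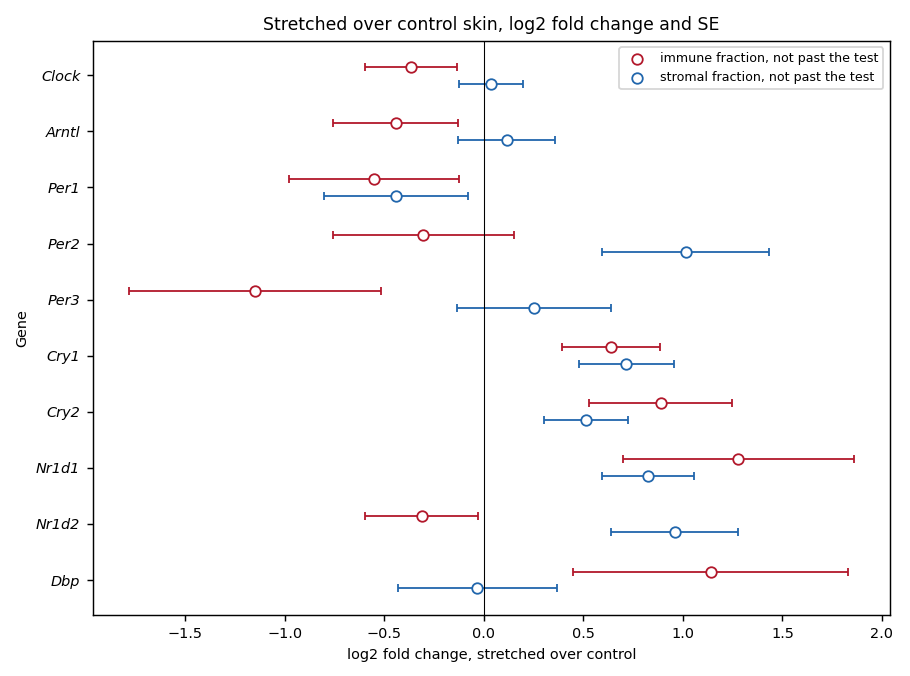
Log2 fold change of each clock gene, stretched over control (horizontal axis), in the immune and the stromal fraction; points are edgeR estimates and bars are SE, and none has an adjusted p under 0.05. Cry1, Cry2 and Nr1d1 are to the right of 0 in both fractions.

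The difference of the stretch effects, immune minus stromal, was tested over all 16 libraries. Of the clock genes 0 were called, as were 0% of 18295 genes in edgeR, where 4232 genes had an unadjusted p under 0.05, and DESeq2 called 1609 genes, 8.79% of those tested, and 0 clock genes. Nr1d2 gave the smallest p, with a difference of -1.07 ± 0.48 on the log2 scale (unadjusted p = 0.0384, edgeR adjusted p = 0.193). For Arntl it was -0.33 ± 0.40 and for Clock -0.22 ± 0.30 (edgeR adjusted p = 0.657 and 0.7).

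A list of 20 further genes of the clock and its outputs was read beside them. In stretched skin 2 of 20 were higher and 9 lower in immune than in stromal cells, where 23.9% of all genes were higher and 25.1% lower. Ciart, an inhibitor of the CLOCK and ARNTL pair, averaged 13.4 ± 2.64 CPM in immune stretched and 2.41 ± 0.524 CPM in stromal stretched libraries, a log2 fold change of 2.33 ± 0.29. Nfil3, a D-box repressor, averaged 345 ± 154 CPM in immune stretched and 81.6 ± 8.89 CPM in stromal stretched libraries, at 1.94 ± 0.31 (edgeR adjusted p = 0.000188 for Ciart and 0.000808 for Nfil3). The 9 lower genes were Rorb at -4.51 ± 0.59, Npas2, a paralogue of Clock, at -3.12 ± 0.39, Arntl2 at -1.92 ± 0.46, Bhlhe41 at -1.84 ± 0.46, Usp2 at -1.48 ± 0.29, Tef, a paralogue of Dbp, at -1.12 ± 0.33, Btrc at -1.05 ± 0.24, Bhlhe40 at -0.71 ± 0.25 and the casein kinase Csnk1d, which phosphorylates Period proteins, at -0.67 ± 0.18. Their edgeR adjusted p ran up to 0.0382 for Bhlhe40. In control skin, 3 of the 19 tested were higher in immune cells and 3 lower, where 26.6% of all genes were higher and 22.8% lower. Among the higher ones, Ciart was higher by 2.80 ± 0.53 on the log2 scale and Nampt, the enzyme of NAD salvage, by 1.65 ± 0.31 (edgeR adjusted p = 0.0013 and 0.00123). Lower were the deubiquitinase Usp2 at -1.93 ± 0.37, Btrc, which targets Period proteins, at -1.31 ± 0.48 and the E-box repressor Bhlhe40 at -0.76 ± 0.29 (edgeR adjusted p = 0.00147, 0.0421 and 0.0461).

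Under stretching 0 of these 20 genes were called in stromal cells, against 4.98% of all genes, and 0 of the 17 tested in immune cells, where 0% were called. In stromal cells 17 of 20 were positive, with a median log2 fold change of 0.37, where 8138 of all 16074 genes were positive with a median of 0.01. Among the 4 with the smallest p were Npas2 at 0.74 ± 0.20, Csnk1d at 0.55 ± 0.15 and Timeless at 0.61 ± 0.19 (edgeR adjusted p = 0.0527, 0.0534 and 0.0795), and in each all stretched libraries were above all controls. In immune cells the 4 were Nfil3 at 1.31 ± 0.42, Bhlhe41 at -1.99 ± 0.70, Csnk1d at 0.48 ± 0.21 and Npas2 at -1.82 ± 0.93 (edgeR adjusted p = 0.195, 0.215, 0.28 and 0.331). Nfil3 averaged 345 ± 154 CPM in immune stretched and 127 ± 55.1 CPM in immune control libraries, without overlap.

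Genes tied to the routes that also reach Per1 were counted beside it, and the shares of all genes called are those just given. Of 10 glucocorticoid-inducible genes 0 were called under stretching in either fraction. In stretched skin 1 was higher in immune than in stromal cells, Tsc22d3 at 0.72 ± 0.23 (edgeR adjusted p = 0.0254), and 7 were lower. In control skin 0 were higher and 4 lower in immune cells, Errfi1 at -2.82 ± 0.29, Klf9 at -2.18 ± 0.38, Cebpd at -2.17 ± 0.42 and Sgk1 at -1.23 ± 0.38. A list of 8 genes was taken for CREB, and 1 of them, Crtc1, encodes a coactivator of CREB and is counted here without being taken as CREB-induced. Of the 8 genes 1 rose in stromal cells of stretched skin, the salt-inducible kinase Sik1. It had 73.1 ± 14.2 CPM in stromal stretched and 37.1 ± 7.41 CPM in stromal control libraries, a log2 fold change of 0.99 ± 0.21 (edgeR adjusted p = 0.0424). Without stromal stretched 7 and 8 that comparison called 0 of all genes, Sik1 included. In immune cells 0 of the 8 were called under stretching. Between fractions in stretched skin 2 were higher in immune cells, Crem at 3.63 ± 0.37 and Nr4a2 at 1.66 ± 0.23 (edgeR adjusted p = 5.51e-05 and 0.000337), and 4 lower, Fos at -0.97 ± 0.31, Gem at -1.15 ± 0.26, Nr4a1 at -1.09 ± 0.31 and Crtc1 at -1.19 ± 0.26. In control skin 3 were higher, Crem at 3.35 ± 0.33, Nr4a2 at 2.43 ± 0.50 and Sik1 at 0.68 ± 0.25 (edgeR adjusted p = 1.94e-05, 0.00221 and 0.0452), and 3 lower, Fos at -1.97 ± 0.42, Gem at -1.76 ± 0.32 and Crtc1 at -1.29 ± 0.39.

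Exons of 4 clock genes overlap a gene on the other strand, and the sources do not state whether counting used strand. Nr1d1 (chr11:98767932-98775333, minus strand, GRCm38) shares 263 of its 3077 exon bases with Thra, the thyroid hormone receptor alpha gene. Thra averaged 25.7 ± 7.26 CPM in stromal stretched and 44.2 ± 9.72 CPM in stromal control libraries, a log2 fold change of -0.78 ± 0.23 (edgeR adjusted p = 0.069). That is opposite in sign to Nr1d1 for stretching in stromal cells, and the contrast does not cover the differences of Nr1d1 between fractions. Dbp (chr7:45705088-45710203, plus strand) shares 539 of 2993 exon bases with Sphk2, whose fold changes between fractions were 0.50 ± 0.29 in stretched and 0.81 ± 0.40 in control skin, opposite in sign to those of Dbp. Cry2 (chr2:92403646-92434043, minus strand) shares 295 bases with the transcript D930015M05Rik and Arntl (chr7:113207465-113314126, plus strand) 33 bases with Gm45355. The part of reads from shared exon bases in the values of these clock genes was not tested. The others lie at chr11:69095217-69109960 (Per1, plus strand), chr1:91415982-91459324 (Per2, minus), chr4:151003652-151044665 (Per3, minus), chr10:85131700-85185064 (Cry1, minus), chr5:76209868-76304792 (Clock, minus) and chr14:18204054-18239127 (Nr1d2, minus).

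Genes of like pattern were ranked by the root mean square difference of log2 CPM, each gene centred on its own mean over the 16 libraries, among 9271 genes with a mean of at least 10 CPM. Per2 fell below that mean and was not ranked. Nearest to Per1 were Gm44694 at 0.31, the formin Diaph1 at 0.34 and the ubiquitin ligase Cbl at 0.35. The clock gene nearest to Per1 among those ranked was Clock at 1.15, rank 2354. Nearest to Dbp were the mannosidase Man1c1 at 0.64, Rfng, which glycosylates Notch receptors, at 0.65 and the RNA-binding Raly at 0.66, and its nearest clock gene was Cry2 at 0.90, rank 167. Nearest to Arntl were Aar2 at 0.25, Gfm1 at 0.25 and Ecd at 0.26, and its nearest clock gene was Cry1 at 0.70, rank 3000.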

How the data were processed

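RNA was extracted, turned into cDNA with SMART-Seq mRNA LP and made into Nextera XT libraries, per the labels' protocols. The authors checked reads with FastQC 0.11.9 and aligned them with STAR to mm10, per the submitters' processing notes; for the counting tool, its strand setting and its handling of reads with several matches the sources name nothing. The authors deposited raw read counts per Ensembl gene for 55487 genes in 16 libraries, with no normalization. Symbols, exon lengths and coordinates come from GENCODE M21 (GRCm38), which matched 55394 identifiers, and promoter windows from RefSeq (GRCm38.p6).

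Each comparison was fitted on its own groups (the difference on all 16 libraries) with edgeR 4.0.16 (R 4.3.3, limma 3.58.1), after its filter on low counts (minimum count 10, minimum total 15), with TMM factors, quasi-likelihood tests and Benjamini-Hochberg adjustment over all genes at 0.05. All 10 clock genes passed the filter in every comparison. The method was also run on simulated counts drawn independently for each library, and the outcome is not reported here. Such counts cannot show how the method does with libraries that stand apart. The SE is the log2 fold change divided by the square root of the F statistic. Alternatives were RLE factors, DESeq2 1.42.0, other filters, all 16 libraries in one fit, offsets for length and GC content (splines of 4 degrees of freedom), the title number as a block, and leaving out libraries. Replicates were compared pairwise by chi-square over genes, which gave 25.1 to 247 for each degree of freedom, so every pair of libraries differed by more than sampling noise. The clock genes, the gene lists and the markers were chosen with earlier results of these data known, so list counts are descriptions. Genes named outside the clock genes are from those of each list that were called or had the 4 smallest p in a comparison, genes with overlapping exons, and the 3 genes of most like pattern. The values of 1 gene of the further clock list are not reported here.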

Additional observations from a re-analysis of the deposited data

Results flagged for a closer look

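Nr1d2 in immune stretched 2 was at 17.2 CPM, far below the other 3 libraries of its group at 41.4 to 42.5 CPM. The gap made up more of the group's range than Dixon's 95% critical value for 4 samples allows. It was the only such value among 40 combinations of clock gene and group, and chance alone marks about 1 in 20. Without this library the log2 fold change of Nr1d2 between immune and stromal cells of stretched skin was -0.80 (edgeR adjusted p = 0.033), and all libraries together gave -1.09.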

How the results depend on the processing

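Over 917 alternative values of the clock genes' fold changes, 856 kept their side of the threshold and did not change sign by more than 1 SE, 26 lost a call, 8 gained one, 25 without a call changed sign by more than 1 SE and 2 called ones reversed, both Clock between fractions in control skin (-0.12 with length and GC offsets and -0.51 with the replicate block added); the cause was not tested. For stretching in stromal cells, 0 clock genes were called in the reported analysis, 3 with DESeq2, 2 with no filter and 1 with a filter of 50 reads in 4 libraries, and 0 to 1 as single libraries were left out. Over all genes the 800 calls there became 677 with RLE factors, 2274 with DESeq2, 2115 with no filter, 1378 with the stricter filter, 4 with the offsets, 0 with all 16 libraries in one fit, 0 without the libraries with receptor-gene reads, and 0 to 1589 as single libraries were left out. For stretching in immune cells and for the difference, 0 to 0 clock genes were called throughout; over all genes the immune count was 781 with DESeq2, 667 with all 16 libraries in one fit and 0 to 45 with single libraries left out, and the difference count was 1609 with DESeq2, 3924 with no filter, 120 with the stricter filter and 0 to 1495. Between fractions, 6 clock genes called in stretched skin became 4 to 7 with single libraries left out and 4 without the libraries with receptor-gene reads, and 5 in control skin became 3 with the offsets and 3 to 5 with single libraries left out (3 without stromal control 1 or 3). RLE factors moved the median of all genes in the difference to -0.19, against 0.03 with TMM, and with no filter it was -1.14 there and 0.54 for stretching in stromal cells.

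Title numbers did not pair the libraries: same-numbered libraries correlated at -0.121 to 0.162 in their deviations from group means, and 0 of 8 matched best with their own number. With the number as a replicate block, 0 clock genes were called for stretching in stromal cells, 0 in immune cells and 0 for the difference, and 4 between fractions in stretched skin, where Arntl (edgeR adjusted p = 0.095, and 0.21 with the offsets added) and Dbp lost their calls, and 4 in control skin, where Clock did; 0 genes of all were called for stretching in stromal cells. Stromal control libraries carry the numbers 1 to 4 and stromal stretched libraries 5 to 8. Immune stretched libraries carry the numbers 1, 2, 7 and 8 and immune control libraries 3 to 6. With the block, the stretch effect in either fraction could thus be estimated only through libraries of the other fraction with the same numbers. The 0 calls for stretching in stromal and in immune cells therefore say little about those effects. The fewest reads behind a value were those of Dbp in immune control libraries, 2 to 36, where Per2 had 17 to 51 and Per3 21 to 174.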
